A study of Homo sapiens and Mus musculus with 33 samples.

Results

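Broad H3K4me3 domains of the mouse colon epithelium were taken as the H3K4me3 peaks of the authors' list whose end minus start was at least 4000 bp. There were 295 such domains among 27035 peaks. They were 4049 to 13649 bp wide by this measure (median 4649, quartiles 4199 to 5249), against a median of 1349 bp in the 26740 narrower peaks, which are given below in classes such as 2 to 3 kb (at least 2000 and under 3000 bp). Their lengths added up to 1489 kb, which was 3.86% of the length of all peaks. The list is set on a grid of 150 bp, so that no peak lay between 3899 bp, the widest peaks left out, and 4049 bp, the narrowest domains. The narrowest domains included those at Hivep2, at Cramp1l and Ift140, and at Jun, with 636.8, 487.4 and 496.6 scaled reads in the first H3K4me3 library. The widest peaks left out included those at Cpeb2, Arid1b and Tsc22d2, with 593.2, 590.9 and 607.0 scaled reads in that library.

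Trimethylation of lysine 4 of histone H3 (H3K4me3) is laid down around active and CpG-rich gene starts by the SET1 and MLL families of methyltransferases, some of which are brought there by the CpG-binding protein Cxxc1. Most H3K4me3 peaks are short and sit just downstream of a transcription start, and in many tissues the broadest ones lie over genes that specify the cell type. In the colon such genes include the homeobox factor Cdx2, which gives the epithelium its intestinal identity.

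All samples used were colon epithelium of C57BL/6 mice, stripped from the colon with EDTA, with no treatment and no genetic change. The study's methods state that the mice were male and that chromatin of pooled colons was used for the immunoprecipitations. Elsewhere they call the H3K4me3 replicates biological, and the legend of the H3K18cr figure speaks of cells of 2 mice. The ChIP-seq replicates may thus be technical, and any spread or p-value between them may then not cover differences between mice. ChIP-seq comprised 3 libraries of H3K4me3 (Active Motif antibody) with 1 input, which is chromatin before precipitation, and 2 libraries of histone H3 crotonylated at lysine 18 (H3K18cr, PTM Biolabs antibody) with 2 inputs. RNA-seq of poly(A) RNA came from 3 mice, and the study also included a human cell line that is not used here.

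The RNA-seq libraries held 8166406 to 10707901 counts on genes. The ChIP-seq values are read counts multiplied by 1 factor for each library and are called scaled reads here. The H3K4me3 libraries held 2541429 to 5230629 scaled reads in peaks and their input 770954. The H3K18cr libraries held 3482707 and 5595946, and their inputs 1437984 and 1811780. As a check of the tissue, all 23 listed genes of epithelial adhesion and structure were above 1 CPM (gene counts relative to the library total) in each mouse. The 15 listed immune markers summed to 49.1, 58.1 and 69.2 CPM in the 3 mice, with the leukocyte gene Ptprc at 13.8, 20.4 and 22.3 CPM, and the 17 listed stromal and muscle markers summed to 77.9, 61.8 and 66.7 CPM. None (0) of these 32 immune and stromal markers started in a broad domain, which is near the background of 1.19% of all protein-coding genes.

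The domains were of 3 kinds, by what the annotation starts in them. A gene of the RNA-seq table started in 225 domains. A further 32 held the start of some other protein-coding transcript in the GENCODE M21 annotation, and 38 held no protein-coding start. The sequences below, from the RefSeq assembly of GRCm38 with every CpG dinucleotide in capitals, are shown because CpG content is one of the features in which these kinds differed. The first 3 run from 250 bases before to 50 bases after the start of a gene in a broad domain, on the strand of the gene. They are the start in the widest domain, Zbtb7a (chr10:81134970-81135269, plus strand), and those of 2 epithelial transcription factors, Cdx2 (chr5:147307221-147307520, minus strand) and Klf5 (chr14:99298441-99298740, plus strand). The other 2 are the middle 300 bases, on the plus strand, of 2 wide domains with no protein-coding start, over exons of Gigyf1 (chr5:137523000-137523299) and of Plec (chr15:76180875-76181174).
Zbtb7a start: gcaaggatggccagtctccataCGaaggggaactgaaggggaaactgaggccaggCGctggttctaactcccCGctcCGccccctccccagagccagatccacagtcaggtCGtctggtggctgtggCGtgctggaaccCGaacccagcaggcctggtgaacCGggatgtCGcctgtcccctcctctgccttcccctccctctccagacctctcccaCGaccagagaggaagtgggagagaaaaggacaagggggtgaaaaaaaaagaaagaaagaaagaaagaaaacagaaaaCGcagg
Cdx2 start: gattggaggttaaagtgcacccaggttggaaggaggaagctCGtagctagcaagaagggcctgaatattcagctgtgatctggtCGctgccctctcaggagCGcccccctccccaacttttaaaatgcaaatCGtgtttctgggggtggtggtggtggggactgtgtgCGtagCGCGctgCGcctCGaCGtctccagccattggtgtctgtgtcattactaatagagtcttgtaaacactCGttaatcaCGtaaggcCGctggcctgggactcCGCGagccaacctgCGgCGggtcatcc
Klf5 start: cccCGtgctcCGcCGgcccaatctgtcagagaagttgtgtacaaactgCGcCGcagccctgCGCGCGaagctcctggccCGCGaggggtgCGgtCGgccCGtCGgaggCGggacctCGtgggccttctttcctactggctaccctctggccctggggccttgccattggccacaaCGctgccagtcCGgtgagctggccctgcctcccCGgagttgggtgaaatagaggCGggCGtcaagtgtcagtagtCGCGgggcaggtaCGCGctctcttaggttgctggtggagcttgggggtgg
Gigyf1, middle of domain: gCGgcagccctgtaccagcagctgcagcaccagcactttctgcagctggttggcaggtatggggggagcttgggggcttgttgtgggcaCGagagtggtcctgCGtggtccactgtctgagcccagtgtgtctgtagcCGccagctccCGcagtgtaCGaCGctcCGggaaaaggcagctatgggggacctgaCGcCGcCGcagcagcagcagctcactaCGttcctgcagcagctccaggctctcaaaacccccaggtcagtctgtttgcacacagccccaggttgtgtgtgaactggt
Plec, middle of domain: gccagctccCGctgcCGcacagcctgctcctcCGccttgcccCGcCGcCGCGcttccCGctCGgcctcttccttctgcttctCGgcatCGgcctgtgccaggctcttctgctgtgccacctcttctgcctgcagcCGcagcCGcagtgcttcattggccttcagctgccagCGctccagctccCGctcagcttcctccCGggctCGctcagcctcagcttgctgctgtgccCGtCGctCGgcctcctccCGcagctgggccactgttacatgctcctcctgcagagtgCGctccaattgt
The windows held 11, 17 and 25 CpG at the starts of Zbtb7a, Cdx2 and Klf5, and 12 and 22 in the middles of the Gigyf1 and Plec domains. Their GC contents were 58.3%, 56.3%, 67.3%, 62.7% and 68.0% in the same order. The CpG counts of starts and middles overlapped, so these windows by themselves do not show the difference between the kinds, which was one of medians over whole domains.

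The median number of CpG in such a 300-base window was 23.5 (quartiles 17 to 33) over the 250 protein-coding genes that started in a broad domain. It was 26 for genes starting in peaks of 2 to 3 kb, 20 for those of 1 to 2 kb, and 3 for genes with no peak over the start. At least 10 CpG were present at 90.8% of the domain starts, at 92.1% of starts in peaks of 2 to 3 kb and at 9.29% of starts without a peak. The starts in broad domains were thus CpG-rich, and no richer than those in peaks of intermediate width.

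Over whole domains the kinds differed in their medians, while their ranges overlapped. In the 225 with a gene start, the median ratio of observed to expected CpG was 0.62, exons of protein-coding genes took 28.6% of the bases, and the log2 ratio of H3K4me3 to input had medians of 2.12, 2.88 and 3.27 in the 3 libraries. In the 32 with another start, which had a lower CpG ratio and a similar exon share, these medians were 0.37, 26.8%, and 1.59, 2.05 and 2.46. In the 38 with no start, they were 0.37, 68.4%, and 1.05, 1.57 and 1.75. The order of the kinds by enrichment was the same in each of the 3 libraries. Since the same libraries chose the peaks, these ratios are a description and no test was made.

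**Figure D1:**
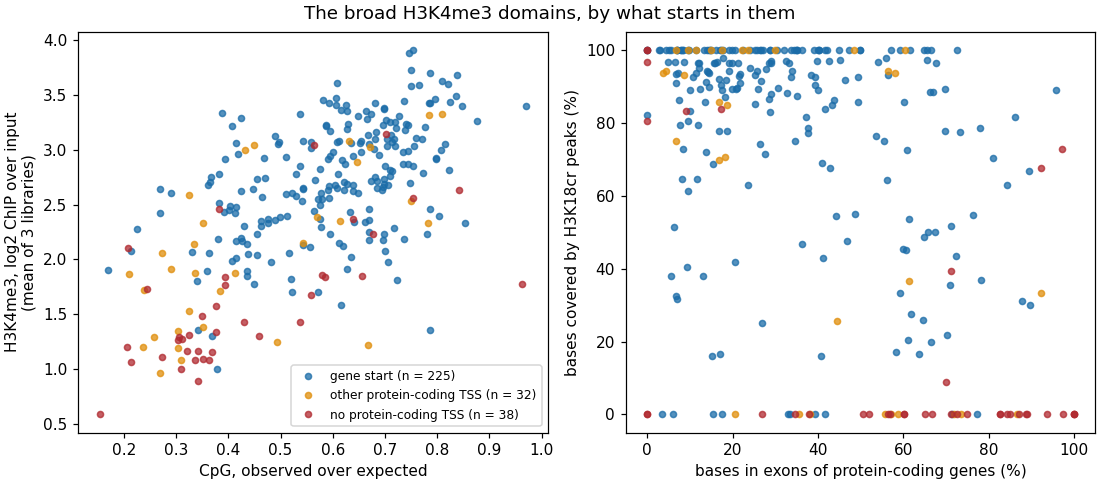
Each point is 1 of the 295 broad domains, coloured by whether a gene of the table, another protein-coding transcript or neither starts in it. Left, CpG observed over expected against the mean log2 ratio of H3K4me3 to input over 3 libraries; right, percent of bases in exons against percent of bases under H3K18cr peaks. The 38 domains with no protein-coding start (red) lie mostly at low CpG, low H3K4me3 and no H3K18cr. Of these, 27 are exonic over more than 50% of their bases, against 51 of the 225 with a gene start.

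The 38 domains with no protein-coding start lay mostly inside genes and far from the start. For 33 of them a protein-coding gene overlapped the domain. The middle of the domain lay at a median of 86.2% of the way from the start to the end of that gene, and for 28 it lay past 50% of that way. Exons took over 50% of the bases in 27 of the 38, against 51 of the 225 domains with a gene start and 11 of the 32 with another start. A CpG ratio under 0.6 was found in 31 of the 38, against 99 of the 225 and 23 of the 32. The widest, over Gigyf1 (chr5:137519101-137527200), held 273.6, 345.1 and 451.3 scaled reads in the H3K4me3 libraries against 142 in the input. The domain over the long exons of Plec, the gene of the cytoskeletal linker plectin (chr15:76177651-76184400), held 381.6, 417.3 and 553.6 against 139. That over Apc2, which lay wholly in exon (chr10:80311051-80317500), held 262.1, 433.3 and 416.6 against 134. In each of these domains all 3 libraries were above the input, and none (0%) of the bases was under an H3K18cr peak. Log2 ratios under 2 in all 3 libraries were found in 23 of the 38, against 4 of the 225 domains with a gene start. Narrower peaks with no protein-coding start, 646 of 2 to 4 kb, had a median CpG ratio of 0.36 and 49.6 scaled reads per kb, against 0.37 and 53.8 per kb in the 38 domains, and a lower exon share, 45.1% against 68.4%.

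One of these domains stood apart from all others. The interval chr17:39842851-39849300 held 5336 scaled reads in the input, where the median domain held 92 and the next highest 678. Its H3K4me3 values, taken per kb, averaged 2880 scaled reads, where the next domain of the list had 270. GENCODE places a ribosomal RNA gene, CT010467.1, in it, and it had no H3K18cr peak. It alone held 10.6%, 8.77% and 8.32% of the reads in broad domains in the 3 H3K4me3 libraries and 15.5% in the input. With it, the domains took 5.21%, 5.27% and 5.27% of the reads in peaks and 4.47% of those of the input. Without it they took 4.69%, 4.83% and 4.85%, and 3.80% of those of the input. The domain at Hjurp, which encodes the chaperone of the centromeric histone, also had a high input, 520 scaled reads, with 825.4, 1131 and 1209 in the H3K4me3 libraries, and log2 ratios to input of only 0.67, 1.12 and 1.22.

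A gene start lay in 76.3% of the broad domains (Wilson 95% interval 71.1 to 80.8, which covers counting error only). The share was 73.5% of 648 peaks of 3 to 4 kb, 75.5% of 3655 peaks of 2 to 3 kb, 55.2% of 13861 peaks of 1 to 2 kb and 7.91% of 8576 peaks under 1000 bp. The intervals of the 3 classes from 2 kb upwards overlapped, at 71.1 to 80.8, 69.9 to 76.7 and 74.04 to 76.8. More than 1 gene start lay in 63 domains (21.4%), against 6.19% of all narrower peaks and 15.0% of those of 3 to 4 kb, and in 56 domains genes started on both strands. A wider interval has more room for a start, so these shares follow width in part by construction. The domains with most starts held 3 genes each, such as the one with Eme2, Mrps34 and Nme3 and the one with Pfn1, Eno3 and Gm12319.

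The domains lay mostly downstream of the start. Of 162 domains with a single gene start, 143 (88.3%) reached further into the gene than upstream. They ran a median of 3421.5 bp downstream and 1291.5 bp upstream. For peaks of 3 to 4 kb these lengths were 2497 and 905 bp, for 2 to 3 kb 1587 and 766 bp, and for 1 to 2 kb 953 and 491 bp. The median share that lay downstream was 72.5% in the domains, 73.6% at 3 to 4 kb, 67.7% at 2 to 3 kb and 65.9% at 1 to 2 kb. From class to class, the length added on the side of the gene was larger than that added upstream.

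The widest domain was that of Zbtb7a, a zinc finger repressor (chr10:81133801-81147450, 13649 bp), which ran 12230 bp downstream and 1419 bp upstream of the start. It held 1290, 2124 and 2758 scaled reads in the H3K4me3 libraries and 251 in the input. Its RNA was at 468, 511 and 448 CPM in the 3 mice. The domain of Tnrc18 (chr5:142812151-142824000, 11849 bp) was the next widest and lay nearly evenly about the start, with 5511 bp downstream and 6338 bp upstream. It held 1304, 2201 and 2806 scaled reads against 188, and its RNA was at 80.1, 89.9 and 76.6 CPM. The third, with the H3K4 methyltransferase gene Setd1b and AI480526 (chr5:123134401-123145350, 10949 bp), held 990.9, 1624 and 1975 against 176. All libraries of these 3 domains were at least 5 times the input. The domain of Cant1, a nucleotidase (chr11:118410451-118419750, 9299 bp), held 478.2, 749.0 and 1009 against 132, and its RNA was at 398, 419 and 415 CPM. The domain of 8999 bp that followed held the starts of Sphk2, Fam83e and Spaca4, with RNA of 103 to 117 CPM for the sphingosine kinase Sphk2, 396 to 447 CPM for Fam83e and 0 counts for Spaca4. The domain of Smad7, an inhibitor of TGF-beta signalling, was 8699 bp wide and that of Brd2, a reader of acetylated histones, 7649 bp. Their RNA was at 37.3, 32.9 and 35.8 CPM and at 239.9, 250.3 and 235.6 CPM.

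Width and density were separate orders. By mean H3K4me3 per kb, the highest domains after that of the ribosomal RNA gene were those of Lphn2 (270 scaled reads per kb), Anp32a (266), Gata6 (258), Cux1 (253), Zfp36l2 (252), Cebpa (247), Hivep2 (246), Ubtf (242) and Tle3 (241). These were 4049 to 4949 bp wide, and none (0) was among the 10 widest. Zbtb7a had 151 per kb and the median domain 125, against 131 in peaks of 2 to 3 kb and 85.1 in peaks of 1 to 2 kb.

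Genes that started in a broad domain had more RNA than genes that started in narrower peaks. On the scale of CPM per kb of exon, their median was 13.0, 12.7 and 12.5 in the 3 mice (290 genes with a known exon length). It was 9.20, 9.14 and 8.84 for 561 genes in peaks of 3 to 4 kb and 7.94, 8.02 and 7.69 for 3313 genes in peaks of 2 to 3 kb. It was 4.27, 4.39 and 4.24 for 8393 genes in peaks of 1 to 2 kb and 0.152, 0.177 and 0.169 for 684 genes in peaks under 1000 bp. The order of the classes was the same in all 3 mice, and the mice of neighbouring classes did not overlap. The median of log2(CPM per kb + 0.1) was higher in domain genes than in the 12951 genes of narrower peaks by 1.40, 1.34 and 1.36, or 1.37 ± 0.033 (SD, n = 3 mice). No test across genes was made, since genes are not replicates. When only genes with at least 10 counts were kept, the difference was 1.01.

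**Figure D2:**
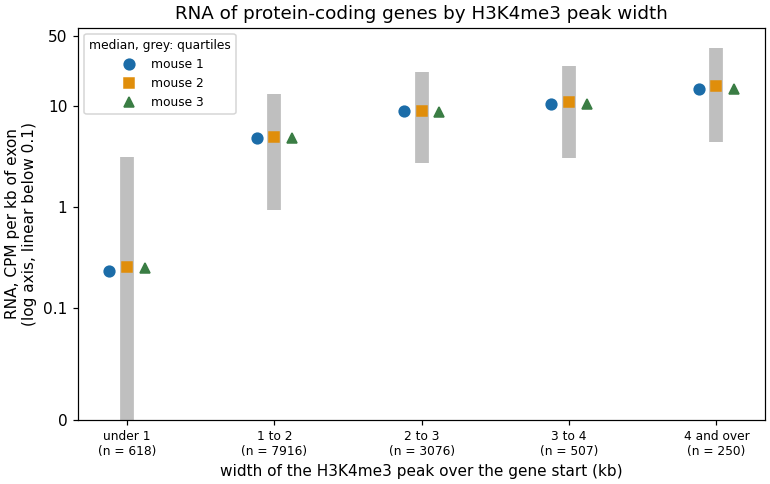
RNA of protein-coding genes (CPM per kb of exon, log axis that is linear below 0.1) by the width of the H3K4me3 peak over the start. Points are the medians of the 3 mice and grey bars the quartiles over genes of the mean of the mice; medians rise with width, from 4.81 to 4.95 at 1 to 2 kb to 14.6 to 15.9 at 4000 bp and over, while the quartiles of neighbouring classes overlap.

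The spread between genes was wide. Of the 250 protein-coding genes in domains, 124 (49.6%) fell in the top quartile by RNA of all protein-coding genes with a peak over the start, and 23 (9.20%) in the lowest. Across the 250 genes within the domains, the Spearman correlation of width and RNA was 0.101. It was 0.283 across 12367 genes with a peak of any width, and the narrower range of widths in the domains lowers such a correlation by construction. The median SD of a gene between mice, on the log2 scale, was 0.373, 0.179, 0.138 and 0.103 for domain genes in the quartiles from lowest to highest RNA, and 0.254, 0.173, 0.121 and 0.1005 for the other genes. It was higher for domain genes in each quartile, with only 23 of them in the lowest, and was not tested.

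By CPM per kb of exon, the 5 highest protein-coding genes in domains were Lgals4, Krt8, Actb, Cldn3 and Pfn1, whose values are given here in CPM. Lgals4, an intestinal galectin, was at 3617, 3362 and 3610 CPM, and its start window had only 3 CpG. Krt8, a keratin of simple epithelia, was at 2296, 2071 and 1898 CPM, and Actb, cytoplasmic actin, at 2636, 2607 and 2634 CPM. The tight junction gene Cldn3 was at 740, 745 and 699 CPM, and Pfn1, an actin-binding protein, at 1054, 998 and 1027 CPM. At the other end, 12 of the 250 (4.80%) were under 1 CPM in every mouse, against 9.47% of genes in peaks of 3 to 4 kb and 10.3% in peaks of 2 to 3 kb. Trpm8, Spaca4, Tlx3, Egr3 and Wnt1 had 0 counts in all 3 mice, at totals of 8166406 to 10707901 counts. A count of 0 in a library allows up to 3 counts. The starts of Trpm8 and Spaca4 shared their domains with Hjurp and with Sphk2 and Fam83e, which had RNA, while Egr3 and Tlx3, both transcription factors, had domains of 6599 and 4649 bp. The Egr3 domain (chr14:70074301-70080900) held 367.9, 521.6 and 669.3 scaled reads of H3K4me3 against 111 in the input, so that all libraries were above input where no RNA was counted.

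Transcription factors of the intestinal epithelium were the group of listed genes with the largest share in domains. Of 29 in the list, 11 (37.9%) started in a broad domain, where 1.19% of all protein-coding genes did and 2.02% of those with a peak over the start. The list was chosen with earlier results of these data known. In order of width they were Cdx2 (8549 bp), Foxa1 (6449), Elf3 (6299), Sox9 (5549), Klf4 (5399), Hes1 (5099), Rxra and Klf5 (4949), Gata6 (4649), Gfi1 (4199) and Foxa2 (4049). The domain of Vdr, the vitamin D receptor, held the start of another of its transcripts.

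Cdx2, the intestinal homeobox factor, had the seventh widest of all domains (chr5:147299101-147307650), which ran 8169 bp downstream and 380 bp upstream of the start and so covered the gene. It held 908.1, 1490 and 1821 scaled reads against 159 in the input, and the whole of it (100%) lay under H3K18cr peaks. Cdx2 RNA was at 508, 493 and 411 CPM. The pioneer factor Foxa1 had 510.4, 909.5 and 1281 scaled reads against 126 and RNA at 202, 238 and 215 CPM. Elf3, an ETS factor of epithelia, was at 518, 402 and 369 CPM. Sox9, a factor of the crypt base, was at 224, 263 and 286 CPM, with its domain shared by BC006965, which starts on the same interval. The Kruppel-like factors Klf4, of differentiated cells, and Klf5, of dividing crypt cells, were at 532, 431 and 385 CPM and at 809, 783 and 818 CPM. Gfi1, a factor of the secretory lineage, was lowest by CPM, at 32.6, 43.2 and 41.3.

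The RNA of the 11 factors overlapped widely with that of the other listed factors. Their median was 62.4 CPM per kb, from 12.3 to 208, and that of the 13 whose start lay in a narrower peak was 106, from 8.02 to 295. The 5 with no peak over the start were at 0.152 to 54.4 CPM per kb, and the median of all 18 that did not start in a domain was 34.9, so the direction depends on whether factors without a peak are counted. Hnf4a, the nuclear receptor of enterocytes, was at 869, 874 and 815 CPM with a peak of 2099 bp, and Cdx1 at 561, 514 and 473 CPM with one of 3299 bp.

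**Figure D3:**
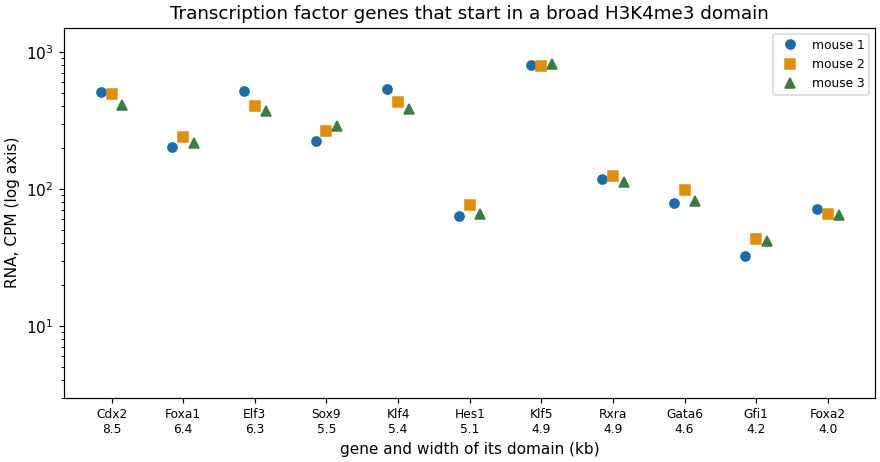
RNA (CPM, log axis) in each of 3 mice for the 11 listed transcription factor genes that start in a broad domain, in order of domain width, which is given in kb under each name. All 11 are above 30 CPM in every mouse, and the order by width is not the order by RNA.

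Immediate early genes, which respond within minutes to stimuli, came next. Of 20 listed, 7 (35.0%) started in a domain, namely Fosl2 (6149 bp), Fos (5249), Junb (5099), Egr1 (4649), Klf10 (4349), Btg2 (4199) and Jun (4049). Subunits of the AP-1 factor made up 4 of these 7 and 7 of the 20 listed, since Fosb, Fosl1 and Jund did not start in a domain. Among the 7, RNA ran from Egr1 at 12.1, 8.87 and 11.3 CPM through Fos at 34.0, 28.1 and 29.0 CPM to Fosl2 at 130.9, 113.7 and 115.9 CPM and Jun at 137, 128 and 98.3 CPM.

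Of 23 genes of epithelial adhesion and structure, 4 (17.4%) started in a domain. Beside Lgals4, Cldn3 and Krt8 this was Esrp1, a splicing regulator of epithelia, with a domain of 5999 bp and RNA at 364, 329 and 335 CPM. The domain of Krt19 held another of its starts. Epcam, Vil1 and Esrp2 had peaks of 3749 bp, just under the limit. Of 14 stem cell and Wnt target genes, 3 (21.4%) were in domains, Myc (4799 bp), the Wnt feedback gene Axin2 (4649 bp) and the receptor gene Ephb2 (4499 bp). Myc RNA was at 66.7, 67.4 and 67.5 CPM, and Lgr5, the marker of crypt stem cells, had a peak of 2099 bp. Of 16 genes of H3K4 methylation and demethylation, 3 (18.8%) were in domains, Setd1b, the CpG-binding subunit gene Cxxc1 (5249 bp) and Wbp7, an older name of the methyltransferase Kmt2b (4349 bp). RNA of Setd1b was at 52.9, 71.5 and 52.1 CPM. Of 39 Hox genes 2 (5.13%) were in domains, Hoxb8 and Hoxb7, whose starts share 1 domain of 6299 bp. Of 23 tumor suppressor genes 1 (4.35%) was, the forkhead factor gene Foxo3 (5699 bp), with RNA at 103.4, 114.1 and 110.1 CPM.

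None (0) of the listed 15 absorptive, 11 goblet, 12 enteroendocrine and 7 tuft cell genes started in a domain. As 1.19% of all protein-coding genes did, a count of 0 in lists of this size is near the background. Some of these genes had very high RNA. Muc2, the main mucin, was at 6746, 12351 and 9745 CPM, and no H3K4me3 peak of any width lay over its annotated start. Of the 11 goblet genes only 3 had a peak there, and the median start window of the 11 held 5 CpG. Fewer cells of a type and less RNA or mark per cell cannot be told apart in such bulk samples. None (0) of 60 ribosomal protein genes started in a domain by the gene table, which is also near the background of 1.19%. Another annotated start of Rpl18 lay in the domain of Sphk2 and Fam83e. A peak lay over the start of 57 of the 60, with a median width of 1799 bp and a widest of 3449 bp, against a median of 1649 bp over all genes with a peak. The median RNA of the 60 was 62.2 CPM per kb, with Rps13 at 1.31 and Rplp1 at 1936. The study kept uniquely mapped reads only, and the effect of this on these genes was not tested.

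**Figure D4:**
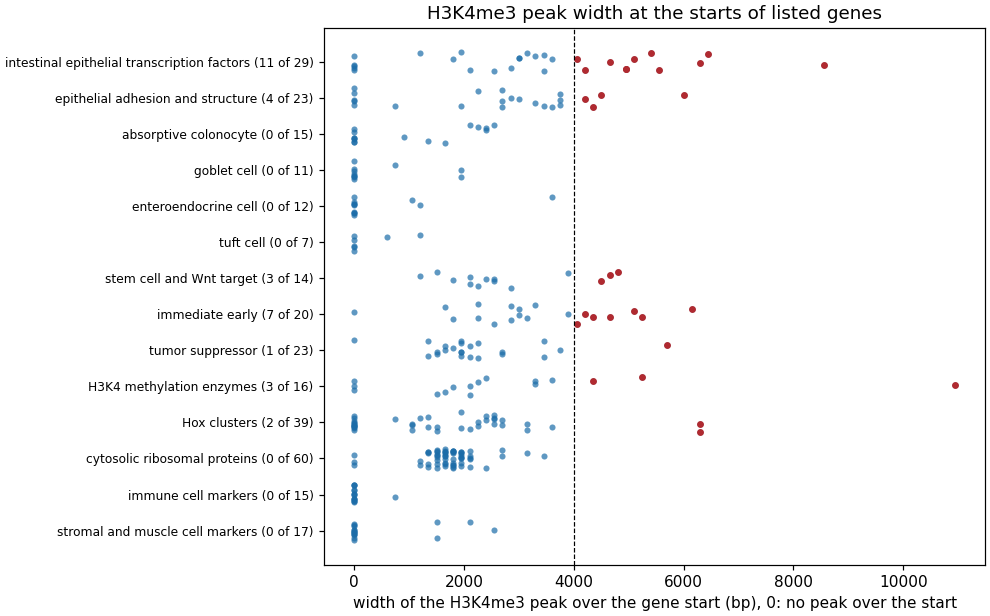
Width of the H3K4me3 peak over the start of each listed gene (bp, 0 where no peak lies over it), 1 point a gene, with the counts in broad domains beside each list. Points at or past the dashed line at 4000 bp are red; the transcription factors spread to 8549 bp, while ribosomal protein genes have a median of 1799 bp and goblet cell genes stay at or below 1949 bp.

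Among all domain genes with a gene description, words that name transcription factors were found for 46 of 233 protein-coding genes (19.7%). The share was 10.5% in peaks of 3 to 4 kb, 6.98% at 2 to 3 kb and 5.86% at 1 to 2 kb. The words were chosen after values were seen and also take in a few proteins that are no transcription factors, such as the RNA-binding Zfp36l1 and Zfp36l2. They match Foxd2, Zfp703, Zbtb7b, Klf13 and Nr3c2, and miss Gata6, Gfi1 and Rxra of the listed factors. The same wording found 0 of 233 for ribosomal proteins and 4 of 233 (1.72%) for solute carriers, against 1.88% at 2 to 3 kb.

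H3K18cr, measured in libraries that did not choose the domains, covered most domains with a gene start. An H3K18cr peak overlapped 248 of the 295 domains (84.1%, Wilson interval 79.5 to 87.8) by at least 1 bp, against 45.3% of narrower peaks, and covered a median of 88.6% of the bases of a domain. By kind, it overlapped 215 of 225 domains with a gene start (95.6%, 92.0 to 97.6), 23 of 32 with another start (71.9%, 54.6 to 84.4) and 10 of 38 with no start (26.3%, 15.0 to 42.01). Among peaks of 2 to 4 kb with a gene start the share was 85.3% (84.1 to 86.5), and the median coverage 86.7% against 91.3% in the domains with a gene start. A wider interval meets another peak more easily, so the share that is overlapped rises with width in part by construction. Where a domain had an H3K18cr peak, the log2 ratio of H3K18cr to input over that peak had a median of 1.60 in replicate 1 and 2.00 in replicate 2, against 1.36 and 1.70 in narrower peaks. Between domains and peaks of 2 to 4 kb, both with gene starts, the medians differed by 0.11 in replicate 1 and by 0.13 in replicate 2. This is in the same direction in both replicates and smaller than the gap between the replicates themselves.

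**Figure D5:**
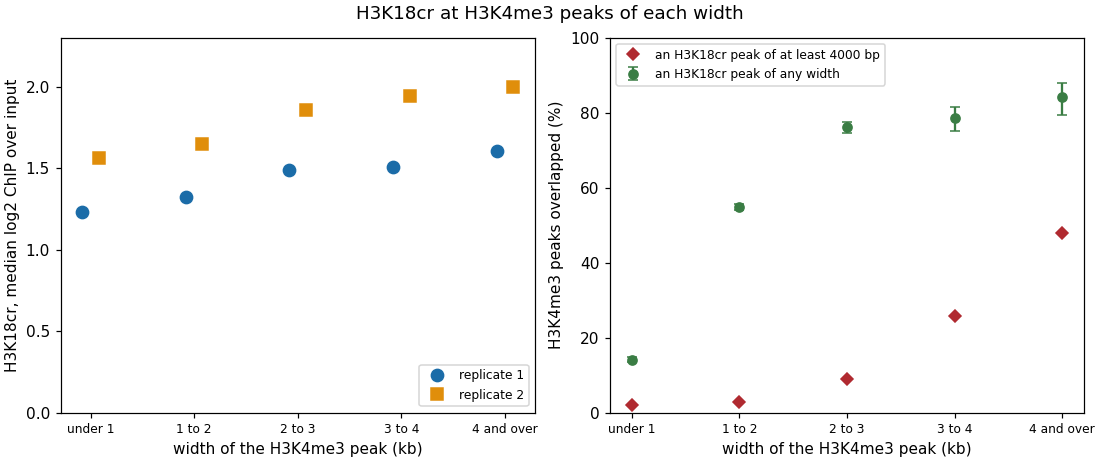
H3K18cr by width class of the H3K4me3 peak. Left, median log2 ratio of H3K18cr to same-numbered input in each replicate, over peaks with an H3K18cr peak; right, percent of H3K4me3 peaks overlapped by an H3K18cr peak of any width (circles, with 95% Wilson intervals) or of at least 4000 bp (diamonds). At 4000 bp and over, the medians are 1.60 and 2.00 and the percentages 84.1% and 47.8%.

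An H3K18cr peak of at least 4000 bp overlapped 141 of the 295 domains (47.8%), against 25.8% of H3K4me3 peaks of 3 to 4 kb and 4.36% of all H3K4me3 peaks. As a share of the 1537 H3K18cr peaks of that width, those that overlapped a broad H3K4me3 domain were 147 (9.56%). With 295 domains against 1537 such peaks, this share could only be low. An H3K18cr peak of that width also overlapped 1039 of the 26740 narrower H3K4me3 peaks (3.89%). Single domains ranged widely. The highest mean log2 ratios of H3K18cr to input were those of Hivep2, Brd2, Cux1, Arhgap21 and Bahcc1, with Brd2 at 2.17 and 2.63 in the 2 replicates. The lowest among domains with an H3K18cr peak were those of Irf8, Fbxl6 and Slc52a2, Egr3, Zfpm1 and Hjurp. Egr3 was at 0.78 and 1.04 and had H3K18cr peaks over 15.9% of its domain. Irf8, an interferon regulatory factor, was at 0.56 and 1.43, and its RNA at 115.0, 119.8 and 122.4 CPM. Hjurp was at 0.24 and 0.32, in the domain with the high H3K4me3 input. For Cdx2 the ratios were 1.84 and 2.42, for Klf5 1.66 and 2.06, and for the Lgals4 domain (chr7:28833451-28837950) 1.60 and 2.17. All these ratios were taken over the whole H3K18cr peaks that overlapped a domain, and so can include bases outside it. The H3K18cr peaks at Cdx2, Klf5 and Lgals4 were 19799, 16949 and 10799 bp wide, wider than the domains of 8549, 4949 and 4499 bp.

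The difference between the 2 H3K18cr libraries and the 2 inputs was tested with limma over all 30338 H3K18cr peaks. Of the 322 peaks that overlapped a broad domain, 312 (96.9%) were above input at a Benjamini-Hochberg adjusted p under 0.05, and percent called over all peaks was 90.1. The peaks were called on these same H3K18cr libraries, so a high share is built in, and 96.0% of the H3K18cr peaks at narrower H3K4me3 peaks were also above input. The peak at Hivep2 had 542.2 and 961.4 scaled reads against 108 and 145.0 in the inputs, a log2 difference of 2.52 ± 0.57 (SE) with a limma adjusted p of 0.00099. The Zbtb7a domain held 3 H3K18cr peaks, with differences of 2.36, 2.25 and 1.77, the first of them with 399.1 and 710.1 scaled reads against 92 and 114.5. The libraries and inputs did not overlap in the Hivep2 peak or in this one. The median log2 difference was 1.74 at domains, 1.69 at peaks of 3 to 4 kb, 1.65 at peaks of 2 to 3 kb, 1.46 at peaks of 1 to 2 kb and 1.20 where no H3K4me3 peak lay. When libraries were instead scaled by TMM over all peaks, the median over all peaks moved from 1.31 to -0.02. That at domains was then 0.39, and 144 of the 322 (44.7%) were above input, where percent called over all peaks was 7.41. The call depended on having both inputs. With input replicate 1 or input replicate 2 left out, 0 of the 322 were called by limma, with 11 and 50 at an unadjusted p under 0.05. With H3K18cr replicate 1 left out, 321 were called, where 98.8% of all peaks were, and with H3K18cr replicate 2 left out, 263 (81.7%) were called, where 47.4% of all peaks were.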

How the data were processed

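The authors trimmed reads with Trim Galore, mapped ChIP-seq reads to GRCm38 with Bowtie2, removed duplicates and called H3K4me3 peaks with MACS in SEQMONK against input. The settings for H3K18cr peaks were not given in the sources used here. The deposited ChIP-seq values are a signal per peak, read counts scaled to the largest library. Each mark has 1 peak list for all libraries. The deposited RNA-seq values are raw counts per gene; the study names HiSat2 and the labels list TopHat2, and the strand setting of the counting is not given in the sources used here, so reads of overlapping genes on both strands may be mixed. Peak settings and the 1 input set where a domain ends. 455 neighbouring pairs of peaks lay 1 bp apart, which splits some domains, and 96 domains had a neighbour under 1 kb away.

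Domains were peaks with end minus start of at least 4000 bp. A gene belonged to a domain if its 5′ end in the table lay inside it. Gene types, exons and other starts came from GENCODE M21, in which 24880 of 25965 genes were matched, 290 of them among the 295 genes in domains. CPM was divided by merged exon length. Ratios of ChIP to input were log2 after adding 1 scaled read, with the same-numbered input for H3K18cr. H3K18cr was tested with limma 3.58.1 in R 4.3.3 (trend, two-sided, mean of at least 10, no block), with p-values adjusted over all peaks, after a test on simulated data. TMM factors came from edgeR 4.0.16. The design named a count test for raw counts, which these values are not, and the planned edgeR alternative on recovered reads was not run. Deviations of same-numbered H3K18cr and input libraries correlated at 0.038 across peaks, and numbers were not treated as pairs in the limma fit. That correlation leaves out any shift shared by all peaks of a replicate number, so it cannot exclude pairing. Python 3.11.15, pandas 2.3.3, numpy 2.4.6, scipy 1.17.1 and matplotlib 3.10.9 were used for the rest.

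Genes named were those in the 10 widest and 10 densest domains, up to 6 a list by width with the rest of the factors in domains, the 5 highest and 5 lowest by RNA, the 5 highest and 5 lowest by H3K18cr, the 3 on each side of the width limit and the 5 domains with most starts, and others were named after values were seen. The members and lists were chosen with earlier results of these data known. Of the listed genes, 4 are not reported here and were left out of the list counts. Settings varied are given in the closing section. Files of the human cell line were not used.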

Additional observations from a re-analysis of the deposited data

How the results depend on the processing

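The number of broad domains was 943 at a limit of 3000 bp, 104 at 5000 bp and 769 when peaks less than 1 kb apart were joined first, so the set depends on the limit and on how peaks were split. Against 295 genes that started in a domain, 250 of them protein-coding, 305 started within 1 kb of one and 381 overlapped one in any part. The log2 difference in RNA between genes in domains and in narrower peaks was positive under all settings. It was 1.29 without division by length, 1.23 with a pseudocount of 1, 1.01 with only genes of at least 10 counts, 1.45 for starts within 1 kb of the peak and 1.42 with only protein-coding genes, and 1.35 to 1.38 with each mouse left out. The share of H3K4me3 reads in peaks that fell in domains was 5.47% after subtraction of the input, 4.79% without the domain with the highest input, and 5.24% to 5.27% with each library left out. The share of domains with an H3K18cr peak was 72.5% when at least 50% of a domain had to be covered and 95.6% for domains with a gene start only.

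For H3K18cr against input, 312 of 322 peaks in domains were called, 144 with TMM scaling, and 0 to 321 with 1 library left out (0 without input replicate 1 or without input replicate 2, by limma). With 1 input left, that input is assumed to vary like the H3K18cr libraries. Adding the replicate number as a block gave 321 calls, where 99.9% of all peaks were called. A pseudocount of 5 and no filter on low values each gave 312. The causes of these shifts were not tested. The planned edgeR fit on recovered reads was not run. If the ChIP-seq replicates came from pooled colons, the differences between libraries do not cover differences between mice. The scaled values limit precision at domains with few input reads. Several alternatives, namely those with the highest-input domain left out, gene-start domains only and protein-coding genes only, were chosen after seeing the data.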

Other observations

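Some domain genes encode parts of signalling pathways, and those given here were chosen after their values were seen, so no count or share is given. In the Notch pathway, the ligand genes Jag1 and Dll4 had domains of 4049 bp each, and the glycosyltransferase gene Lfng, which modifies the Notch receptor, one of 7199 bp. Jag1 RNA was at 35.5, 33.7 and 32.0 CPM in the 3 mice, Dll4 at 39.3, 40.1 and 36.7 CPM, and Lfng at 52.7, 67.4 and 52.9 CPM. The target gene Hes1 was at 63.3, 76.1 and 65.4 CPM. In the Hedgehog pathway, the ligand gene Ihh had a domain of 4949 bp and RNA at 138, 154 and 150 CPM. The receptor gene Ptch1 had a domain of 4649 bp and RNA at 19.6, 21.2 and 21.1 CPM, lower than Ihh in each mouse. In the Wnt pathway, the receptor gene Fzd5 was at 144, 145 and 119 CPM with a domain of 5249 bp, and Fzd7 at 26.3, 30.1 and 30.5 CPM with one of 4199 bp.

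Ephrin ligand and receptor genes in domains differed widely in RNA. Ephb4 was at 293, 300 and 298 CPM, Ephb2 at 220, 269 and 231 CPM and Efna1 at 69.3, 61.9 and 53.1 CPM. Efna3 was at 10.4, 10.9 and 11.1 CPM, and Efna5, with a domain of 5099 bp, had only 0, 3 and 4 counts. The receptor tyrosine kinase gene Erbb3, with a domain of 4649 bp, was at 298, 319 and 343 CPM. The noncoding RNA genes Malat1 and Neat1, whose RNAs stay in the nucleus, had domains of 5849 and 4949 bp. Their RNA was at 1876, 1686 and 1708 CPM and at 612, 739 and 815 CPM.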
